A study of Mus musculus with 28 samples.

Results

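JygMC(A) is a carcinoma line of the mouse mammary gland, and its primary tumors in mice were compared with cultured cells. The comparison used 13 of the 28 arrays of the series, the 11 arrays labelled as primary tumor (PT) and 2 arrays of cultured cells. One culture was a monolayer and the other was grown as 3D spheres, with 1 array each, so the spread within either culture could not be measured. For each of 18194 genes the level is the log2 value of 1 probe set, a group of short probes that read the same transcript. Genes were described when every tumor lay more than 2 log2 units, that is 4-fold, above both cultures or below both. In 101 genes every tumor was above, which is 0.555% of all genes, and in 3 genes every tumor was below, which is 0.0165%. The 4-fold gap chose these genes, so their levels are given without a test.

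The tumors were taken on day 30 from Balb/C nude mice, after 50000 cells had been put into a mammary gland, and were measured as whole tissue. Nude mice lack a thymus and therefore mature T cells, which limits them as a model of the immune part of a tumor. The study's methods describe the injected cells as the line with GFP and luciferase reporters, whereas the labels of the cultured arrays say cell line and do not mention the reporters. Several tumor pieces could come from 1 mouse, since the labels do not tie the arrays to animals, so n counts samples. RNA of tissue was extracted with TRIzol and RNA of cultured cells on columns with DNase, so the extraction and the group cannot be told apart. Normal mammary gland (NMG) and normal lung (NL), 3 arrays each, came from healthy nude mice of the strain and serve for levels only. The cultures share their date label with PT 1 to PT 4, and PT 5 to PT 11 carry another. NMG and NL each carry a date label of their own, shared with no tumor or culture. Tissue and date therefore cannot be told apart where tumors are set beside normal tissue.

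A tumor in an animal is a mixture. Carcinoma cells lie among macrophages, fibroblasts, vessels and fat that belong to the host, and none of these is expected in a culture of the line. Carcinoma cells also respond to where they grow, for example by building or dissolving the junctions that hold epithelial cells together, or by making cholesterol and amino acids when the surroundings supply too little. In whole tissue, fewer cells of a type and less RNA per cell cannot be told apart.

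PT 5 stood apart from its label, and PT 7 did so in part. The library labelled PT 5 held the lung epithelium genes Scgb1a1 at 13.33, Sftpc at 13.17 and Scgb3a2 at 12.19, where NL had means of 14.33, 14.24 and 13.49. In the other 10 tumors Scgb1a1 ranged from 3.05 to 10.76, with the highest level in PT 7. Sftpc was at 9.48 in PT 7 and at 7.92 in PT 3. The mean of the lung epithelium list was 10.39 in PT 5 and 7.10 in PT 7. Adipoq, a fat cell gene, was at 3.77 in PT 5, beside 3.77 in the spheres and 3.70 in the monolayer, and lay from 6.07 to 8.30 in the other tumors. PT 1 was high for skeletal muscle genes, with Acta1 at 10.64. The part of lung or muscle tissue in the results was not tested. Without PT 5 the rule gave 110 genes above and 3 below, and all 101 and all 3 were among them. PT 5 was the highest tumor for 30 of the 101, so the upper end of some tumor ranges below is its level. Array medians of the 13 arrays lay between 5.00 and 5.12, and the number of arrays limits the precision.

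**Figure D1:**
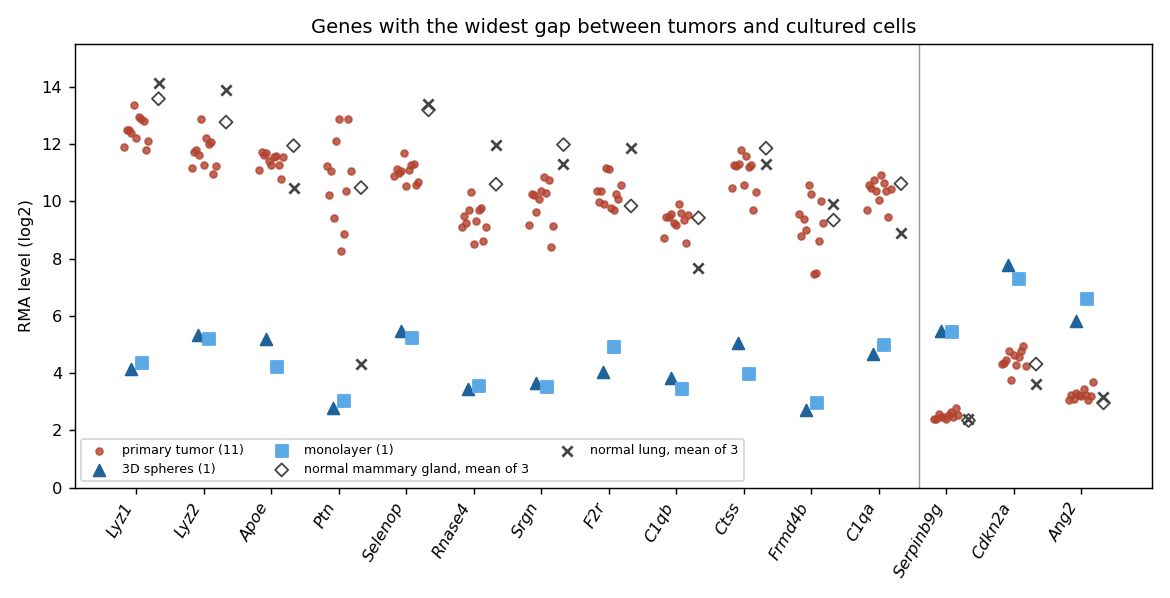
RMA level (log2, y axis) of the 12 genes with the widest gap above the cultures and, right of the line, the 3 genes below them. Circles are the 11 tumors, filled triangles and squares the 2 cultures, open diamonds and crosses the means of 3 normal mammary glands and 3 normal lungs. Every tumor is apart from both cultures, by 7.43 for Lyz1 and by 2.15 for Ang2.

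Leukocyte genes made up the largest group with a known cell type, 29 of the 101. The groups by cell type were put together after the values had been seen and describe the genes only. The widest gap belonged to Lyz1, which encodes lysozyme, an enzyme that cuts bacterial walls. Its level in tumors ran from 11.79 to 13.37 with a median of 12.48, against 4.13 in the spheres and 4.36 in the monolayer. Lyz2, the lysozyme of macrophages, ran from 10.95 to 12.87 with a median of 11.72 and was at 5.33 in the spheres and 5.19 in the monolayer. The sequences of Lyz1 and Lyz2 are close, so their probe sets may share signal. The probe sets of Lyz1 did not all differ alike. A further probe set had a mean of 11.33 in tumors and 4.29 in the cultures. Another was not higher in tumors, with means of 3.80 and 4.19, so the gap of Lyz1 may not belong to Lyz1 alone.

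C1qa, C1qb and C1qc encode the chains of C1q, which starts the classical complement pathway and is made by macrophages in tissue. C1qb had tumor levels from 8.55 to 9.90 with a median of 9.44 and was at 3.83 in the spheres and 3.44 in the monolayer. C1qa ran from 9.46 to 10.91 with a median of 10.44, against 4.66 and 4.99 in the same cultures. Ctss, the protease cathepsin S, had a tumor median of 11.24 with a range from 9.70 to 11.80 and lay at 5.06 in the spheres and 3.97 in the monolayer. The tumor ranges of C1qa, C1qb and Ctss did not come within 4 log2 units of either culture. Srgn, the proteoglycan of secretory granules in blood cells, ran from 8.41 to 10.85 with a median of 10.22, and the cultures were at 3.64 and 3.51.

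In the list of macrophage genes, 12 of 20 passed the 4-fold gap. By limma, a linear model with moderated variances fitted over all genes, 19 of 20 were higher in tumors at an adjusted p under 0.05 and none was lower. Over all 18194 genes 1626, or 8.94%, were called higher and 2674, or 14.7%, lower. The limma counts of every list below are to be read beside these shares. The median difference of the macrophage list was 4.05, against -0.14 over all genes. The gene that missed was Itgam, an integrin of myeloid cells, with a difference of 0.59. Without the spheres 19 members were called, and without the monolayer 18.

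Macrophage genes varied among tumors. The mean of the list was lowest in PT 10 at 7.64 and highest in PT 7 at 9.09, while the cultures were at 4.74 and 4.53. PT 10 was the lowest tumor for 24 of the 29 leukocyte genes, and for 41 of all 101 genes above the cultures. Ptprc, the CD45 phosphatase of all leukocytes, was at 6.84 in PT 10 and at 10.41 in PT 9, against 3.18 in the spheres and 3.39 in the monolayer. C3ar1, the receptor for the complement fragment C3a, had a narrower range from 6.85 to 7.77. It was at 3.44 in the spheres and 3.48 in the monolayer, with means of 5.45 in NMG and 4.92 in NL. Further probe sets of C3ar1 had differences of 1.91 and 1.95. Ms4a7, a membrane protein of macrophages, had a tumor median of 9.38 and means of 7.81 in NMG and 6.03 in NL, and the related Ms4a6d had 8.19, 7.86 and 7.24.

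Genes of other blood cells were called less often. Of 12 neutrophil genes 1 was called higher and 1 lower, the latter not without the spheres, of 4 erythrocyte genes 1 was called lower, not without either culture, and of 13 genes of T and NK lymphocytes 1 was called higher, near the 8.94% of all genes. That gene was Prf1, the pore protein of killer cells, at a median of 6.09 in tumors against 5.05 and 4.76 in the cultures (limma difference 1.26, SE 0.35, adjusted p = 0.0203), and it was not called with the spheres left out (adjusted p = 0.0997), with the monolayer left out (adjusted p = 0.126) or with date as a block. No B lymphocyte gene of 8 was called by limma or by ordinary ANOVA, nor did any reach an unadjusted p under 0.05. Their tumor levels were far apart, from 0.40 to 10.70 for Jchain, the joining chain of antibodies, and from 3.75 to 8.51 for Cd79b, part of the B cell receptor. The mean of the B lymphocyte list ran from 3.72 in PT 11 to 7.81 in PT 7, against 5.11 in the spheres and 5.04 in the monolayer. Its median difference was 1.46, so the lack of calls does not show a lack of signal.

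Fibroblast and matrix genes followed, with 13 of the 101. Col1a2 and Col3a1 encode chains of the fibrillar collagens of connective tissue. Col1a2 ran from 11.17 to 13.17 in tumors with a median of 12.73 and was at 6.45 in the spheres and 6.78 in the monolayer. Col3a1 had a median of 12.48, a lowest tumor of 10.82 and a wide difference between cultures, 4.22 in the spheres and 7.12 in the monolayer. Both collagens lay in the tumors near their NMG means of 12.69 and 12.92. Pdgfra, a growth factor receptor of fibroblasts, ran from 8.49 to 9.76 against 4.67 and 4.88 in culture. Further probe sets of Pdgfra had smaller differences of 0.78 and 1.15. Dcn, the small proteoglycan decorin, ran from 7.99 to 10.28 against 4.72 and 4.68, and its NMG mean of 12.47 was above every tumor.

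In the list of fibroblasts and collagen matrix 7 of 24 genes passed the gap. Limma called 16 higher and 0 lower, against 8.94% and 14.7% of all genes. The counts of members with an unadjusted p under 0.05 were also 16 and 0, and ordinary ANOVA gave 13 and 0. Without the spheres 10 were called, and without the monolayer 12. Col1a1, the other chain of collagen I, rose by 4.51 (SE 0.71, adjusted p = 0.00111), with tumors from 8.12 to 11.41 and cultures at 5.16 and 6.24, and stayed outside the gap rule at 1.88. Postn, periostin, was at 10.29 in the monolayer, 4.26 in the spheres and between 12.22 and 13.34 in the tumors. The tumor with the lowest mean of the list was PT 5 at 8.07, and the highest was PT 4 at 10.11.

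Vessel genes gave 10 of the 101. F2r, the thrombin receptor of endothelium and other cells, had tumor levels from 9.69 to 11.16 with a median of 10.27, against 4.05 in the spheres and 4.93 in the monolayer. Rgs5, a marker of pericytes, ran from 7.49 to 9.87 and was at 4.04 and 4.31. Erg, an endothelial transcription factor, ran from 6.30 to 8.45, with the cultures at 3.92 and 3.93. Its other probe set had a mean of 4.77 in tumors and 4.59 in the cultures, and the tumors overlapped the cultures. All 10 vessel genes had an NMG or NL mean at or above the tumor mean.

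Of 20 endothelial genes 1, Erg, passed the gap and limma called 10 higher. Without PT 5 the count was 13, with the spheres left out 4 and with the monolayer left out 8. Pecam1, the CD31 adhesion protein that marks endothelium, did not pass, with tumors from 3.24 to 6.67 that overlapped the cultures at 3.55 and 4.09 (limma difference 1.23, SE 0.68, adjusted p = 0.192). Of 12 genes of pericytes and smooth muscle 5 were called higher and 1 lower, with 2 higher and none lower when the spheres were left out and 4 and none without the monolayer. Of 10 adipocyte genes 5 were called higher, 2 without the spheres and 3 without the monolayer, and 2 passed the gap. Lpl, the lipase that frees fatty acids from lipoproteins, ran from 7.96 to 9.87 against 5.16 and 5.72, and the fatty acid transporter Cd36 ran from 5.72 to 9.92 against 3.15 and 2.74. Adipoq had a limma difference of 3.49 (SE 0.89, adjusted p = 0.0142), which was 0.108 with the spheres left out and 0.0715 with the monolayer left out.

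Of 6 Schwann cell genes 3 were called higher, none of them without the spheres and 2 without the monolayer. They included Sox10, a transcription factor also known in mammary epithelium, with tumors from 7.10 to 10.18 and the monolayer, the higher culture, at 6.40 (limma difference 2.41, SE 0.69, adjusted p = 0.0250, and 0.187 without the spheres). Pmp22, a myelin protein also made by other cells, had a difference of 2.36 (SE 0.56, adjusted p = 0.0102, and 0.198 without the spheres). For skeletal muscle and lung epithelium 0 of 12 and 0 of 14 genes were called by limma, 0 by ordinary ANOVA and 0 had an unadjusted p under 0.05. Muscle genes were high in single tumors, such as Myh1 at 9.50 in PT 1 against 3.08 and 3.02 in the cultures. The Y-linked genes, absent from female mice, averaged from 2.86 to 3.23 in tumors and 3.29 and 3.17 in the cultures.

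**Figure D2:**
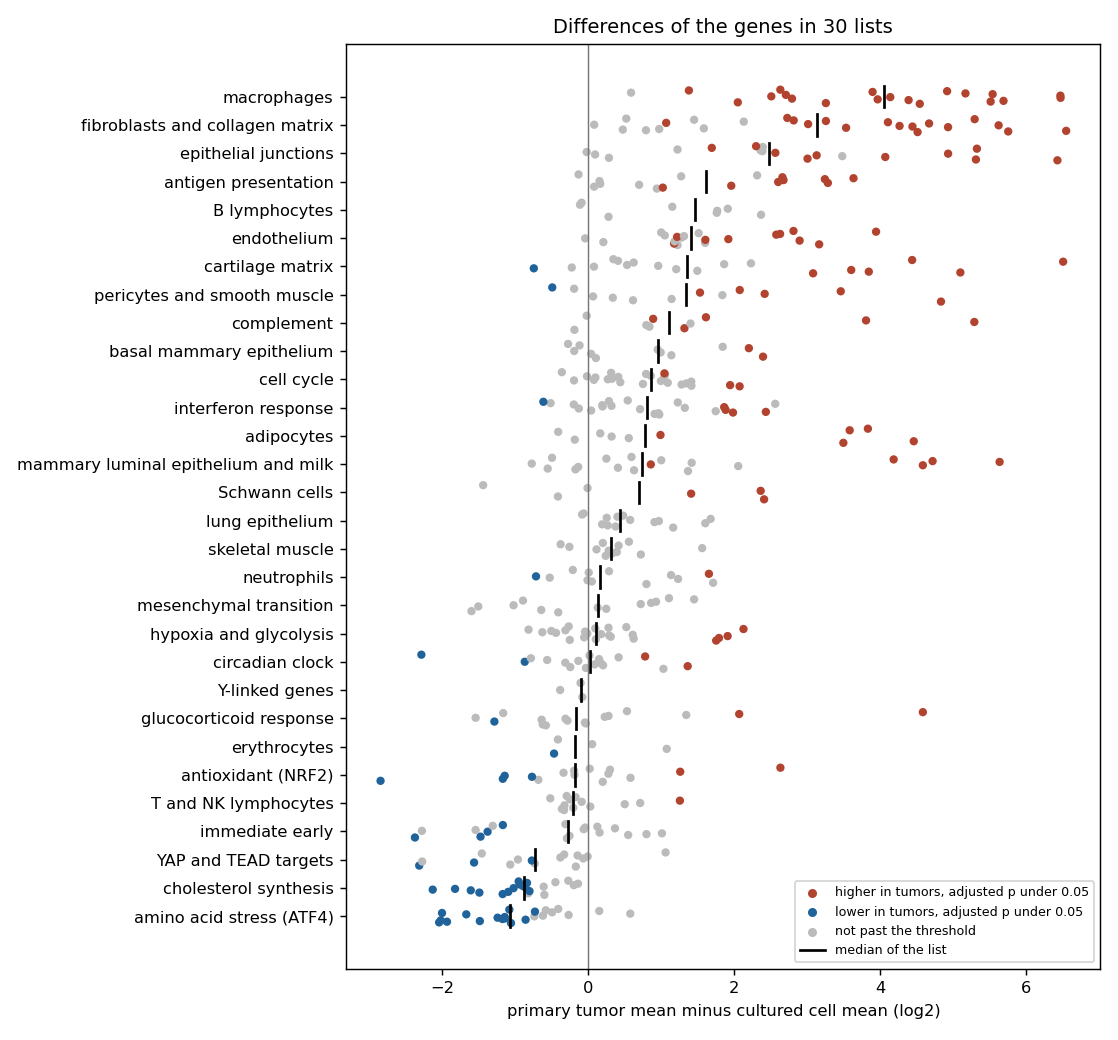
Difference between the tumor mean and the mean of both cultures (log2, x axis) for each gene of 30 lists (y axis, ordered by median). Points are genes, red when called higher and blue when called lower by limma at an adjusted p under 0.05, and black lines are list medians. Macrophage genes lie farthest to the right with a median of 4.05 and genes of the amino acid response farthest to the left with -1.07.

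Part of the epithelial genes were higher in the tumors, with calls that depended on the cultures used. Cdh1 encodes E-cadherin, the adhesion protein of epithelial junctions, and was the gene of the junction list that passed the gap. Its tumor levels ran from 6.18 in PT 8 to 11.35 in PT 5 with a median of 9.42, against 3.81 in the spheres and 4.01 in the monolayer. Without PT 5 the highest tumor was PT 6 at 11.09. NMG and NL had means of 9.29 and 10.21. Epcam, an adhesion protein of simple epithelia, ran from 7.01 to 13.36 with a median of 11.47, against 3.98 in the spheres and 5.62 in the monolayer. Its lowest tumor was therefore 1.40 above the higher culture. Limma gave Epcam a difference of 6.42 (SE 1.35, adjusted p = 0.00583), which became 0.0918 with the spheres left out and 0.0207 with the monolayer left out.

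Of 18 genes of epithelial junctions 10 were called higher and 0 lower, against 8.94% and 14.7% of all genes, with a median difference of 2.48. Those with an unadjusted p under 0.05 numbered 14 and 0, and ordinary ANOVA called 5 and 0. When the spheres were left out none was called, when the monolayer was left out 3 were, and with date as a block 3 were. In 11 of the 18 genes every tumor was above both cultures, against 9.26% of all genes. Dsp, the desmosome protein desmoplakin, ran from 5.75 to 11.10 against 3.12 and 4.29, and Cldn7, a claudin of tight junctions, ran from 5.21 to 11.75 and overlapped the monolayer at 5.40.

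Elf5, the transcription factor of milk-producing cells, ran from 5.21 in PT 8 to 12.37 in PT 5 with a median of 10.05, and the cultures were at 3.73 and 4.36. Its limma difference was 5.63 (SE 1.51, adjusted p = 0.0185), and 0.149 without the spheres. Krt8, a keratin of luminal cells, ran from 7.42 to 11.87 against 4.96 and 5.69 (difference 4.72, SE 1.03, adjusted p = 0.00693, and 0.0886 without the spheres). Krt18, its partner keratin, overlapped the cultures, from 8.22 to 10.24 against 8.78 in the spheres and 7.89 in the monolayer (difference 1.00, SE 0.50, adjusted p = 0.150). Of the 18 luminal and milk genes of the mammary gland 5 were called higher, 1 without the spheres, 2 without the monolayer and 2 with date as a block. Of 11 basal genes 2 were called, Krt14 and Lgals7. None was called when either culture was left out, and 1 without PT 5. Krt14, a keratin of basal cells, ran from 6.21 to 9.57 against 5.53 and 4.96.

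Of 13 mesenchymal genes none was called in either direction by limma or by ordinary ANOVA. At an unadjusted p under 0.05 there were 1 higher and 0 lower, and without PT 5 limma called 1 lower. Without the monolayer 1 was called higher. Vim, the intermediate filament of mesenchymal cells, was at 12.15 in the spheres, 12.86 in the monolayer and from 10.54 to 12.80 in the tumors (limma difference -0.41, SE 0.53, adjusted p = 0.592). Cdh2, N-cadherin, was at 10.46 and 11.20 in the cultures, and its tumor levels ran from 6.19 to 10.47 (adjusted p = 0.147, and 0.0497 without PT 5). Snai2, a repressor of epithelial genes, ran from 5.05 to 9.24 against 8.46 and 9.74 (difference -1.50, SE 0.99, adjusted p = 0.275). All 3 had tumors far below the cultures beside tumors at their level. The mean of the mesenchymal list was lowest in PT 6 at 7.09 and highest in PT 8 at 9.11, against 7.99 in the spheres and 8.67 in the monolayer. For the junction list PT 6 was the highest tumor at 9.21 and PT 8 the lowest at 5.58. Host fibroblasts were measured with the carcinoma cells, so the mesenchymal list does not speak for the carcinoma cells alone.

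The 6 epithelial genes among the 101 were Cdh1, Dsg2, Spint2, Tfap2c, Hook1 and Calml3. Dsg2, a desmosome cadherin, had the narrowest spread, from 8.34 to 9.41 against 4.32 in the spheres and 5.76 in the monolayer. Spint2, an inhibitor of membrane proteases, ran from 7.77 to 11.87 against 3.68 and 5.21. Tfap2c, a transcription factor of mammary luminal cells, ran from 5.31 to 9.72 against 2.71 and 2.45, and Hook1, a linker to microtubules, from 6.05 to 10.48 against 3.43 and 3.64. PT 8 was the lowest tumor for 4 of the 6, and for 18 of all 101 genes.

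Promoters are shown for Spint2 and Hook1, which belong to the epithelial genes named above. They were picked because they hold the E-box CACCTG, which Snail and Zeb repressors bind, on one of the strands. This motif was added to the search after the values had been seen. The sequences are from RefSeq on GRCm38.p6, 250 bases before to 50 after the start, 5′ to 3′ on the strand of the gene. Capitals mark CACCTG or its reverse complement CAGGTG. They lie at chr7:29281928-29282227 on the minus strand for Spint2 and at chr4:95967129-95967428 on the plus strand for Hook1.
Spint2: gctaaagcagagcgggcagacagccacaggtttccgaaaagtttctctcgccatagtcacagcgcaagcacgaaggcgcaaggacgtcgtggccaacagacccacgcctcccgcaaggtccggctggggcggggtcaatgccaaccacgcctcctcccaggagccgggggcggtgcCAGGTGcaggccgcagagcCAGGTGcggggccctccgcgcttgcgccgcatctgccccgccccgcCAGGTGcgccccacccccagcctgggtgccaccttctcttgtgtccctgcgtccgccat
Hook1: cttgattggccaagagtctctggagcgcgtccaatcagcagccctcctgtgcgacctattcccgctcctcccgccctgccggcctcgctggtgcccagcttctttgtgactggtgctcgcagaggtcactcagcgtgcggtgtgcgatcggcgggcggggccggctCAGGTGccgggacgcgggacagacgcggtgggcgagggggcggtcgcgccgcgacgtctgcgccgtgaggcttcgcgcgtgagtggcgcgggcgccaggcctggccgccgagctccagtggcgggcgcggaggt
Spint2 holds 3 copies and Hook1 holds 1. The table gave 99 promoters for 75 of the 101 genes, and 21.21% of them held the motif on either strand, against 20.21% of all 32851 promoters. The share is near that of all promoters. 5 other motifs were searched on both strands. The hypoxia response core ACGTG was in 13.13% against 19.62%, and the core of the interferon stimulated response element in 5.05% against 3.44%. The ATF4 element TGATGNAA was in 4.04% against 3.97% and the cell cycle element TTTGAA in 18.18% against 17.89%. The clock E-box CACGTG, which contains ACGTG, was in 1.01% against 7.15%. A match is a run of letters and does not show binding.

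**Figure D3:**
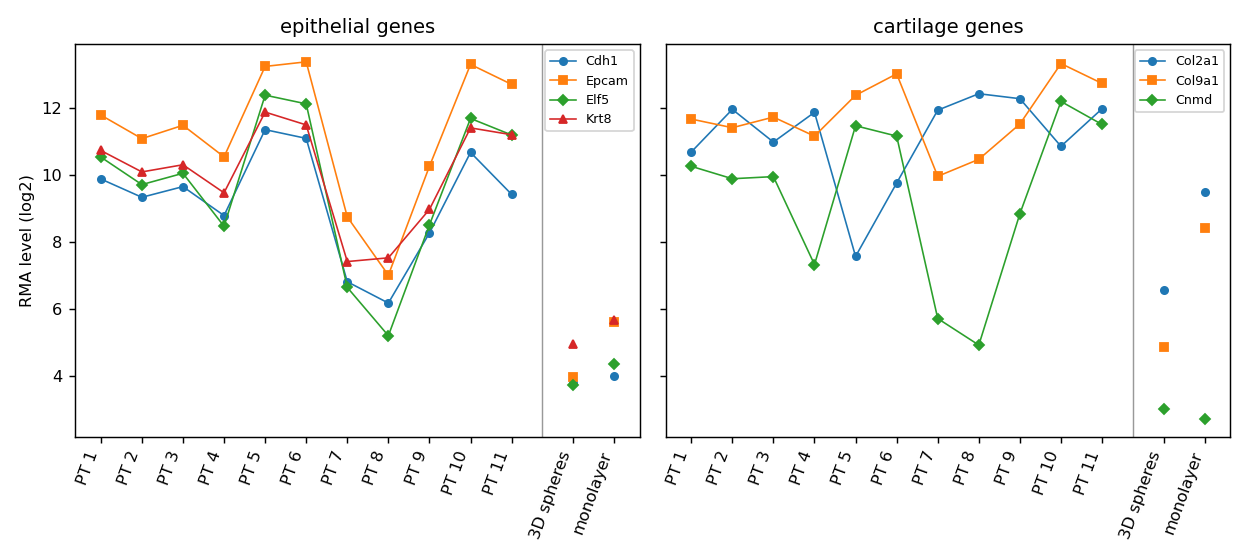
RMA level (log2, y axis) of 4 epithelial and 3 cartilage genes in each of the 11 tumors and, right of the line, in the 2 cultures (x axis). Lines join the tumors for reading only, since they have no order. PT 7 and PT 8 are lowest for the epithelial genes and for Cnmd, at 5.72 and 4.93 for the latter, and PT 5 is lowest for Col2a1 at 7.57.

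3 of the 101 genes are known from cartilage, and for Snorc and Col9a2 the tumors lay above both normal tissues. Snorc, a proteoglycan of cartilage, ran from 8.95 to 11.23 with a median of 10.24, against 6.19 in the spheres, 5.28 in the monolayer and means of 5.08 in NMG and 3.58 in NL. Col9a2, a chain of collagen IX, ran from 7.54 to 9.05 with a median of 8.39, against 4.22 and 4.69 in the cultures, 4.51 in NMG and 4.06 in NL. Snorc and Col9a2 were the 2 of the 101 genes in which every tumor was also over 2 log2 units above every normal array, and over all genes 25 met that condition. Lung metastases of the line (LungMets, 9 arrays, day 50) had means of 9.08 for Snorc and 6.96 for Col9a2. Cytl1, a secreted protein of cartilage, ran from 7.17 to 10.56 against 5.06 and 4.23, and its mean in normal lung was 9.42.

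Of 18 cartilage genes 6 were called higher and 1 lower, 3 and none with the spheres left out, and 6 and 1 with the monolayer left out. Col9a1 rose by 5.10 (SE 0.86, adjusted p = 0.00169, and 0.0582 without the spheres), with tumors from 9.96 to 13.31 and a large difference between the cultures, 4.89 in the spheres and 8.42 in the monolayer. Col2a1, the main collagen of cartilage, was at 6.56 in the spheres and 9.50 in the monolayer, and the tumors overlapped the monolayer, from 7.57 in PT 5 to 12.41. Its difference was 3.08 (SE 1.04, adjusted p = 0.0465), which was 0.481 with the spheres left out and 0.00658 with PT 5 left out. Cnmd, chondromodulin, was at 3.02 and 2.74 in the cultures and from 4.93 to 12.18 in the tumors (difference 6.50, SE 1.60, adjusted p = 0.0125, and 0.0958 without the spheres). Acan, the large proteoglycan aggrecan, fell by 0.74 (SE 0.17, adjusted p = 0.00796), from 4.97 and 4.77 in the cultures to a tumor median of 4.08, and its adjusted p was 0.109 without the spheres.

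Among the 101 genes with no cell type assigned here, several had wide gaps. Ptn, the growth factor pleiotrophin, ran from 8.27 in PT 7 to 12.88 in PT 6 and PT 10, with a median of 11.05, against 2.79 in the spheres and 3.02 in the monolayer. Its NMG mean of 10.48 was near the tumors and its NL mean of 4.33 near the cultures. Apoe, an apolipoprotein made by macrophages and other cells, ran from 10.78 to 11.71 against 5.20 and 4.22. Selenop, a selenium carrier of plasma, ran from 10.55 to 11.68 against 5.48 and 5.23, below its means of 13.20 in NMG and 13.39 in NL. Rnase4, a secreted ribonuclease, ran from 8.52 to 10.32 against 3.43 and 3.54, and the scaffold protein Frmd4b ran from 7.47 to 10.57 against 2.72 and 2.94.

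Stk26, a kinase of the germinal center group, ran from 7.93 to 12.62 with a median of 10.53, against 2.58 in the spheres and 3.94 in the monolayer. Peg3, an imprinted gene, ran from 7.13 to 10.66 against 3.56 and 3.17, and Inhbb, a subunit of activin and inhibin, from 8.85 to 11.25 against 5.10 and 3.89. The other probe set of Inhbb had a difference of 0.46. Gm266, a predicted gene, ran from 7.39 to 11.23 against 3.66 and 3.80. These 4 and Ptn were among 21 of the 101 genes whose tumor mean was above both normal means while the tumors did not all lie over 2 log2 units above every normal array. Ptprz1, a receptor phosphatase that binds pleiotrophin, had the largest standard deviation over tumors beside Cdh1, 1.64 for each, and ran from 5.68 to 10.88 against 3.15 and 2.93. The median standard deviation over tumors was 0.71 for the 101 genes and 0.23 for all genes. The 101 genes were chosen by their tumor levels and all genes were not, so these medians do not compare like genes. The 6 genes with the largest standard deviation were Cdh1, Ptprz1, Ptn, Tfap2c, Hook1 and Stk26. Each had a difference between the lowest and the highest tumor of over 4 log2 units.

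The normal tissues entered the rule only through the choice of the probe set, which was made alike for all genes from all tissue arrays. The mean of NMG or of NL was at or above the tumor mean in 78 of the 101 genes, or 77.2%, against 53.9% of all genes. The count was 80 without NMG 1, whose Scgb1a1 level was 11.51 beside 7.15 and 3.29 in the other glands, and 78 without PT 5. It covered 24 of 29 leukocyte genes, 11 of 13 fibroblast and matrix genes and 10 of 10 vessel genes, but 3 of 6 epithelial and 1 of 3 cartilage genes. In 75 of the 101 genes both cultures lay under the lowest array median of 5.00, against 33.5% of all genes. The gap rule itself favours genes that are low in the cultures, so this difference in share is not a separate result. The cultures were within 0.5 of each other in 70 of the 101. In 8 genes the monolayer was over 1 above the spheres, led by Col3a1 and Bgn, and in 3 genes, Ctss, Inhbb and Mgst1, the spheres were over 1 above the monolayer.

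**Figure D4:**
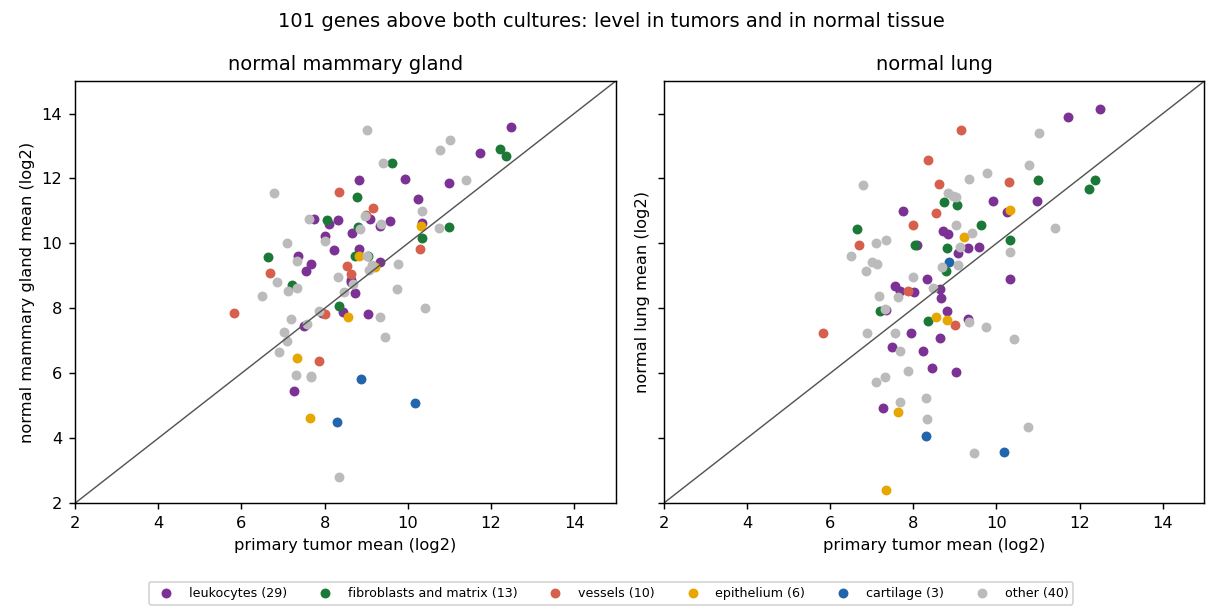
Mean level in normal mammary gland (left) and normal lung (right) against the mean of the 11 tumors, both in log2 units, for the 101 genes above both cultures, coloured by the cell type they are known for. The line marks equal levels. Leukocyte, matrix and vessel genes lie mostly above it in at least 1 normal tissue and Snorc and Col9a2 lie far below it in both.

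Immune pathway genes rose in part, beside 8.94% of all genes called higher and 14.7% called lower. Of 16 genes of antigen presentation 8 were called higher, with 5 when the spheres were left out, 3 without the monolayer, 6 without PT 5 and 5 with date as a block. Psmb8, a subunit of the immunoproteasome, ran from 8.07 to 10.49 against 6.52 and 6.22 (limma difference 3.28, SE 0.53, adjusted p = 0.00130). H2-Ab1, a chain of MHC class II on antigen presenting cells, ran from 6.64 to 10.26 against 5.04 and 5.28 (difference 3.63, SE 0.90, adjusted p = 0.0125, and 0.113 without the spheres). Of 22 interferon response genes 4 were called higher and 1 lower, and 7 and none without the spheres. The mean of the interferon list ran from 6.50 to 8.57 in tumors, which took in the spheres at 7.62 but not the monolayer at 6.04. Its median difference was 0.81 against both cultures and -0.0019 against the spheres only. Oasl2, an antiviral protein, ran from 5.54 to 7.79 against 4.05 and 3.69 (difference 2.43, SE 0.42, adjusted p = 0.00196). Iigp1, a GTPase induced by interferon gamma, was at 8.16 in the spheres and 4.67 in the monolayer, and its tumor range from 6.37 to 10.77 took in the spheres, and it was not called (difference 2.56, SE 0.96, adjusted p = 0.0674). Of 10 complement genes 5 were called higher, 3 without the spheres and 2 without the monolayer. Serping1, the inhibitor of the first complement proteases, passed the gap with tumors from 7.50 to 9.72 against 3.86 and 3.49.

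Genes of hypoxia and glycolysis showed 4 of 23 called higher and 0 lower by limma, against 8.94% and 14.7% of all genes. There were 5 and 1 at an unadjusted p under 0.05 and 4 and 0 by ordinary ANOVA. The counts were 5 and 0 without the spheres and 4 and 1 without the monolayer. Pfkfb3, which makes an activator of glycolysis, ran from 6.53 to 7.95 against 4.88 and 5.12 (limma difference 2.13, SE 0.29, adjusted p = 3.85e-04). Egln3, an oxygen sensor that is itself induced by hypoxia, ran from 8.30 to 10.13 against 6.91 and 6.77 (difference 1.91, SE 0.34, adjusted p = 0.00242). The median difference of the list was 0.11, against -0.14 over all genes.

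Cell cycle genes separated the cultures rather than tumors and culture. Mki67, a marker of dividing cells, had a median of 10.67 and a highest level of 11.24 in tumors, was at 10.53 in the monolayer and at 6.80 in the spheres. Limma gave it an adjusted p of 0.0213 (difference 2.07, SE 0.58), which was 0.611 with the spheres left out and 1.22e-06 with the monolayer left out. Ccnb2, a cyclin of mitosis, ran from 8.99 to 10.35 in tumors and was at 9.52 in the monolayer and 5.75 in the spheres. Of 25 genes 3 were called higher, 0 higher and 2 lower without the spheres, and 18 higher without the monolayer. The share of all genes called higher was 8.94% and that called lower 14.7%. The median difference of the cell cycle list was 0.86, and -0.45 against the monolayer alone.

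Most genes of cholesterol synthesis fell in tumors. Of 20 genes 13 were called lower and 0 higher by limma, against 14.7% and 8.94% of all genes. There were 16 and 0 at an unadjusted p under 0.05, and ordinary ANOVA gave 12 and 0. In 12 of 20 every tumor was below both cultures, against 16.2% of all genes. Msmo1, a sterol oxidase of the pathway, was at 9.29 in the spheres and 10.10 in the monolayer, and from 6.24 to 8.15 in tumors with a median of 7.73. It fell by 2.13 (SE 0.43, adjusted p = 0.00475, and 0.0573 without the monolayer). Insig1, the sterol sensor that holds back the pathway and is induced with it, was at 10.21 in the spheres and 9.65 in the monolayer and from 7.67 to 8.75 in tumors. It fell by 1.82 (SE 0.22, adjusted p = 1.50e-04). Fdps, which makes farnesyl pyrophosphate, fell by 1.49 (SE 0.21, adjusted p = 4.92e-04).

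The cholesterol genes did not differ alike from both cultures. Without the spheres 16 were called lower, and without the monolayer 6 lower and 1 higher. The mean of the list was 9.20 in the monolayer, 8.46 in the spheres and from 7.58 to 8.15 in tumors, so no tumor overlapped a culture. NMG and NL means of the list were 7.95 and 7.90.

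Most genes of the amino acid response, which the factor ATF4 turns on when amino acids are short, fell as well. Limma called 14 of 22 lower and 0 higher, against 14.7% and 8.94% of all genes. There were 17 and 0 at an unadjusted p under 0.05 and 13 and 0 by ordinary ANOVA. Phgdh, the first enzyme of serine synthesis, was at 11.40 in the spheres and from 7.91 to 9.65 in tumors with a median of 9.24, and every tumor was at least 1.35 below both cultures. It fell by 2.02 (SE 0.33, adjusted p = 0.00147). Chac1, which breaks down glutathione, was at 8.87 in the spheres and 7.94 in the monolayer and from 5.46 to 7.48 in tumors (difference -2.04, SE 0.43, adjusted p = 0.00598, and 0.119 without the spheres). Trib3, a pseudokinase that ATF4 induces, was at 10.88 in the spheres, 8.47 in the monolayer and from 7.17 to 8.20 in tumors. In 14 of 22 genes every tumor was below both cultures, against 16.2% of all genes.

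This list was higher in the spheres than in the monolayer. Its mean was 9.17 in the spheres, 8.47 in the monolayer and from 7.58 to 8.05 in tumors. Atf4 itself was at 11.14 and 10.85 in the cultures and from 9.86 to 10.54 in tumors (difference -0.73, SE 0.16, adjusted p = 0.00785, and 0.128 without the spheres).

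**Figure D5:**
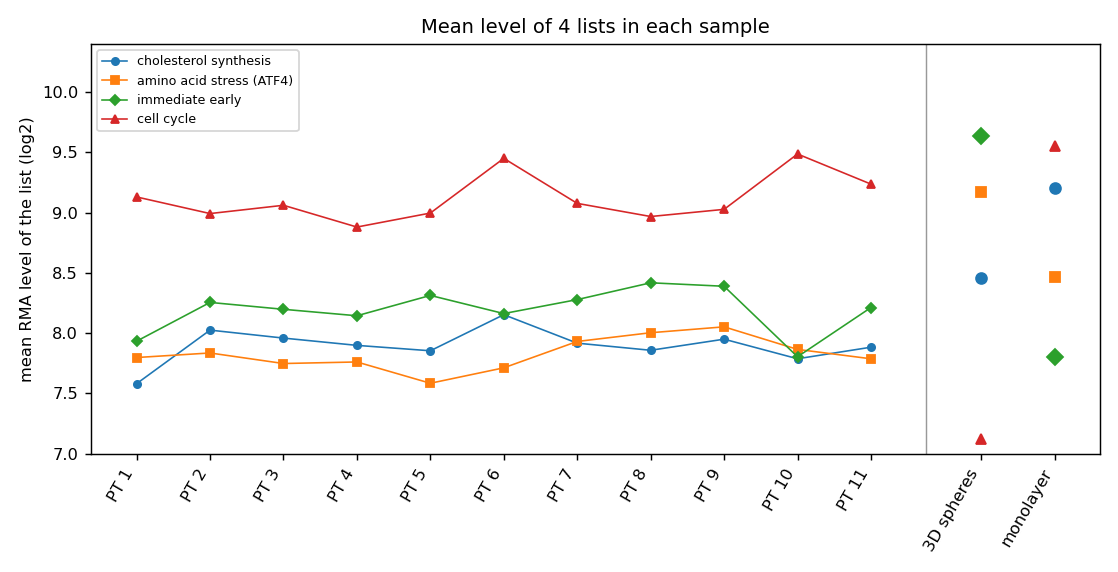
Mean RMA level (log2, y axis, which does not start at 0) of 4 lists in each tumor and, right of the line, in each culture (x axis). Lines join the tumors for reading only. Cholesterol and amino acid genes are below both cultures in every tumor, while the cell cycle mean of 7.12 in the spheres is below and the immediate early mean of 9.63 in the spheres above every other sample.

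Stress and growth genes differed in single members. Hmox1, heme oxygenase, which is induced by oxidative stress, was at 9.64 in the spheres and 8.52 in the monolayer and from 5.39 to 6.70 in tumors. It fell by 2.84 (SE 0.32, adjusted p = 8.12e-05). Of 15 antioxidant genes 4 were called lower and 2 higher, and 3 and 1 without the spheres. Among the higher was Gpx3, a secreted peroxidase, with tumors from 6.63 to 9.70 against 5.89 and 4.80 (difference 2.63, SE 0.55, adjusted p = 0.00552, and 0.0677 without the monolayer). Of 15 YAP and TEAD targets 3 were called lower, a share near the 14.7% of all genes, and 0 higher, with 4 and 0 at an unadjusted p under 0.05 and 1 and 0 by ordinary ANOVA. Left were 1 lower without the spheres, 1 higher and 0 lower without the monolayer, and 0 with date as a block. Ccn1, a matrix protein among these targets, was at 11.95 and 11.91 in the cultures and from 7.33 to 10.66 in tumors (difference -2.31, SE 0.72, adjusted p = 0.0349, and 0.191 without the spheres). Axl, a receptor kinase, was below both cultures in every tumor, from 4.62 to 9.04 against 9.93 and 9.65, with an adjusted p of 0.0998 (difference -2.27, SE 0.97).

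The calls among immediate early genes depended on the spheres. Fosb, a subunit of AP-1, was at 8.00 in the spheres, 4.04 in the monolayer and from 3.43 to 3.93 in tumors (difference -2.37, SE 0.60, adjusted p = 0.0138, and 0.190 without the spheres). Atf3, a stress factor, was at 11.77 in the spheres and 7.06 in the monolayer, with tumors from 5.98 to 7.89, and was not called (adjusted p = 0.0506). Of 18 genes 4 were called lower and 0 higher, 0 lower and 4 higher with the spheres left out, and 7 lower without the monolayer. Of 17 clock genes 2 were called in each direction and none without the spheres, so the shares were near the 8.94% and 14.7% of all genes. Nfil3, a repressor with a daily rhythm, was at 8.35 and 7.41 in the cultures and from 4.32 to 6.99 in tumors (difference -2.28, SE 0.65, adjusted p = 0.0248, and 0.240 without the spheres), while Per3 had a difference of 1.36 (SE 0.46, adjusted p = 0.0459, and 0.337 without the spheres). Of 16 glucocorticoid genes 2 were called higher and 1 lower, 1 and 0 without the spheres, and 1 and 6 without the monolayer, against 8.94% and 14.7% of all genes. Angptl4, an inhibitor of lipoprotein lipase, ran from 6.65 to 8.35 against 5.56 and 5.32 (difference 2.07, SE 0.37, adjusted p = 0.00223), and Lcn2, an iron carrier, ran from 5.74 to 13.01 against 6.39 and 4.79 (difference 4.58, SE 1.40, adjusted p = 0.0321, and 0.115 without the spheres).

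The 3 genes with every tumor over 2 log2 units below both cultures were Serpinb9g, Cdkn2a and Ang2. Serpinb9g, a serine protease inhibitor, was at 5.46 in the spheres and 5.44 in the monolayer and from 2.40 to 2.78 in tumors. Cdkn2a, a tumor suppressor locus that encodes inhibitors of cell division, was at 7.79 in the spheres and 7.28 in the monolayer and from 3.76 to 4.96 in tumors with a median of 4.46. Ang2, here a ribonuclease of the angiogenin family and not angiopoietin, was at 5.83 in the spheres and 6.58 in the monolayer and from 3.05 to 3.68 in tumors. The means of the 3 genes in NMG and NL were 2.35 and 2.41, 4.32 and 3.61, and 2.96 and 3.17 in the same order. No tumor or normal array reached 5.00, the lowest array median of the 13 arrays, for any of them, and both cultures were above it.

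Both promoters of Cdkn2a in the RefSeq table are shown because the locus starts transcripts from separate sites and 1 probe set stands for the gene here. They lie on the minus strand of GRCm38.p6 at chr4:89294570-89294869 and chr4:89282143-89282442. Neither held any of the 6 motifs searched, so no letter is in capitals.
Cdkn2a upstream start: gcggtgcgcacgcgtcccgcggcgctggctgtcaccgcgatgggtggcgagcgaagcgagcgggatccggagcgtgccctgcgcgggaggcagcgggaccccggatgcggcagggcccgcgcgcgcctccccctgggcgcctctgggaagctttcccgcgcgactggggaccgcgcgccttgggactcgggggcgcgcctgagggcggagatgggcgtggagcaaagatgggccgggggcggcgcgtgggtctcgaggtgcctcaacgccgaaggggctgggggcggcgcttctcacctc
Cdkn2a downstream start: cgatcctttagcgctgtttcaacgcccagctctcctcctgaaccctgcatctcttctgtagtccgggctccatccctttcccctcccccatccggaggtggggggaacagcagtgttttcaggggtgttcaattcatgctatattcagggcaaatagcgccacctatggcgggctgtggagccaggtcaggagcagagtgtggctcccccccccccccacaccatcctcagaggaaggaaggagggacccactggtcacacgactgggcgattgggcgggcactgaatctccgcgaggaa

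Just inside it among the genes above were St8sia4 with a gap of 2.03, Steap4 with 2.01 and Abca1, the cholesterol exporter, with 2.00. Just outside were Rbm25 with 1.98, Fxyd3 with 1.97 and Cep295 with 1.95. Among the genes below, Ang2 was just inside with 2.15, and Tchh with 1.98, Hmox1 with 1.82 and Il24 with 1.69 were just outside. With a gap of over 1 the counts were 328 above and 45 below, and with a gap of over 3 they were 44 and 0. Of the 101 genes 67 had further probe sets, 129 in all, of which 105 had a higher mean in tumors, 71 had every tumor above both cultures and 7 had every tumor below.

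More genes passed against 1 culture only. Every tumor was over 2 log2 units above the spheres but not the monolayer in 119 genes, and above the monolayer but not the spheres in 32. Among those above the spheres only were Postn, Col11a1, Igfbp7 and Lox, which encode matrix proteins and a collagen crosslinking enzyme. Col11a1 was at 5.00 in the spheres, 9.96 in the monolayer and from 9.47 to 12.03 in tumors, and Lox at 5.69, 10.35 and from 8.14 to 9.96. In the other direction there were 23 genes with every tumor below the spheres only, such as Fosb, Atf3 and Prxl2a, and 19 below the monolayer only, such as Sema3a, a guidance molecule, at 10.58 in the monolayer and 6.07 in the spheres.

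The limma counts over all genes depended on the setting. With date as a block 958 genes were called higher, or 5.27%, and 1139 lower, or 6.26%. With the spheres left out, which leaves 1 culture assumed to vary like the tumors, 682 were higher and 637 lower. With arrays centred on their medians the split was 1474 higher and 4059 lower. A difference of over 2-fold besides the test left 980 higher and 335 lower. In a simulation over 18194 genes, limma found 20% of genes shifted by 0.5, 74% by 1 and 96% by 2 log2 units. Before the shift, tumors and cultures alike were drawn with the mean and spread of each gene over the tumors. The difference between the real cultures was thus left out, so these shares do not describe the comparison itself. The p-values rest on the spread among these tumors and on the difference between the cultures. They hold no replicate spread of either culture.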

How the data were processed

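RNA was hybridised to Affymetrix 430 2.0 arrays. The authors deposited 1 table of log2 values, and the processing notes of the labels name RMA and Partek 6.6. The genome build is not given in the sources used here. Of 45101 probe sets, 34958 listed 1 gene, 932 several and 9211 none, and a gene was read from the probe set with 1 gene and the highest mean over the 26 tissue arrays. The 11 PT arrays were compared with the 2 cultures as 1 arm by limma 3.58.1 in R 4.3.3 over 18194 genes, with Benjamini-Hochberg adjustment. Tables and plots used Python 3.11.15, numpy 2.4.6, pandas 2.3.3 and matplotlib 3.10.9. The fit was tested on simulated data.

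The genes and the 30 gene lists were chosen with earlier results of these data known. Genes were named by a rule: the widest gaps in each direction, the leading members of each list, genes at the threshold, genes apart from 1 culture only, the widest gaps by level in normal tissue, the largest standard deviations and 9 cell type markers. Further list members were named after their values were seen. Alternatives changed the gap, the probe set, the scaling, a filter on low levels, the cultures and tumors used, date, array weights and the test. Leaving out PT 5 and PT 7 together was added after seeing the data. Listed genes without a probe set of their own were not analysed here.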

Additional observations from a re-analysis of the deposited data

Results flagged for a closer look

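Probe sets that the comparison did not use also held values apart from both cultures by over 2 log2 units. Among probe sets with no listed gene, every tumor was above both cultures in 55 and below both in 0. Among those that list several genes, every tumor was above in 7 and below in 3. These probe sets were set aside as they name no single gene.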

How the results depend on the processing

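Of 98 counts and their alternatives 77 stayed within 1.5 times. The count of genes above was 328 with a gap over 1, 44 with a gap over 3, 48 with the mean of the probe sets, 220 against the spheres only and 231 with PT 1 to PT 4 only. The count below was 45 with a gap over 1, 0 with a gap over 3, 0 for genes above the median level, 22 against the monolayer only, 26 against the spheres only and 7 with PT 1 to PT 4 only. The limma counts were 958 higher and 1139 lower with date as a block, 890 and 978 with array weights, and 980 and 335 with a fold change over 2 as well. Genes called lower were 4059 with centred arrays and 912 among genes above the median level. Leaving out 1 tumor gave 101 to 125 genes above and 3 to 4 below, and against the monolayer only 133 were above. Leaving out 1 array, cultures included, gave 682 to 1711 called higher and 637 to 2996 called lower, the lowest of both without the spheres. Leaving out PT 5 and PT 7 together gave 117 above, 3 below, 1624 higher and 2301 lower. Of the list medians, 2 turned sign, that of cell cycle at -0.45 against the monolayer only and that of the interferon response at -0.0019 against the spheres only. No named gene that was called or passed the gap turned sign. The causes were not tested. No paired analysis was possible because the labels give the cultures no replicate numbers that the tumors share. With 1 array of each culture, signal near background has no order and small differences are limited by the number of arrays.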
